A study of Mus musculus with 6 samples.

Results

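Fibronectin, the thrombospondins and other matricellular genes were examined in cultured cardiac fibroblasts (CFs), the cells that make most of the extracellular matrix (ECM) of the heart. The group holds 8 genes chosen by name, *Fn1*, *Thbs1*, *Thbs2*, *Thbs3*, *Tnc*, *Postn*, *Sparc* and *Spp1*. All 8 were among the 19446 genes of the deposited table, and all 8 had at least 10 reads in at least 2 libraries and so were among the 15948 genes tested. RNA-seq of polyadenylated RNA had been made from 3 wild type (WT) and 3 CharmeKO libraries. CharmeKO mice carry a PolyA signal inserted in the *Charme* locus, which gives rise to a long non-coding RNA, and no other allele or agent is given for either group. Per the labels, the mice were 5 weeks old and both groups were grown in IMDM with 20% FBS on plates coated with fibronectin, the protein that *Fn1* encodes. The study's methods give C57BL/6J mice and an explant culture of 2 weeks from the atria of 6 littermates, so a library holds outgrown atrial cells rather than cells taken straight from the heart, possibly of several animals. The methods also state in general terms that experiments rested on separate primary isolations with technical replicates. The labels do not say how the 3 libraries of a group relate to these isolations, and p-values measure the spread between the libraries.

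Fibronectin is a large glycoprotein that cells assemble into fibrils through integrins, and other ECM proteins are deposited on it. Thrombospondins, tenascin-C, periostin, SPARC and osteopontin are called matricellular, since they are secreted into the ECM but mainly regulate how cells attach, migrate and receive growth factor signals rather than give the tissue its strength. Most of them are scarce in the resting adult heart and are raised in healing or fibrotic myocardium and in fibroblasts on a culture dish.

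Each library held 38330019 to 46797446 reads assigned to genes. CUFF405, which alone lacks an Ensembl ID, was read as the *Charme* feature that the authors added. In the WT libraries numbered 1, 2 and 3 it had 5, 15 and 11 reads and in their CharmeKO partners 0, 6 and 3, so it was near the limit of detection in both groups. Of 10 fibroblast markers, 10 had at least 10 reads in every library, with a summed level of 21010 to 41992 CPM (reads scaled to the library total) in WT and 26979 to 40266 CPM in CharmeKO. Endothelial markers (7 of 10 in the table) and cardiomyocyte markers (4 of 10 in the table) summed to at most 9.22 and 18.6 CPM in any library. Mesothelial markers (9 of 10 in the table) summed to 64.0 to 328 CPM in WT and 25.4 to 368 CPM in CharmeKO, highest in CharmeKO 1 and lowest in CharmeKO 3, and smooth muscle and macrophage markers are given with the results below. Same-numbered WT and CharmeKO libraries deviated together from their group means for numbers 1 and 2, with correlations across genes of 0.762 and 0.514. For number 3 the correlation was 0.217, no higher than the 0.222 of WT 2 with CharmeKO 3. The numbers were taken to pair the libraries, which the labels do not state and the values bear out less for number 3. Differences within pairs are given beside those between groups.

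Sequences upstream of the genes are shown first for the 4 members with the widest spread between libraries among the 6 that had an entry in the RefSeq promoter table (GRCm38.p6), since these are the genes on which the description below turns. *Fn1* and *Thbs1* were not matched. Each line gives the 250 bases before the RefSeq start, 5′ to 3′ on the strand of the gene, with matches on either strand to the TATA box (searched as TATAAA) and to the CCAAT box in capitals.
*Thbs2*, chr17:14694263-14694512, minus strand: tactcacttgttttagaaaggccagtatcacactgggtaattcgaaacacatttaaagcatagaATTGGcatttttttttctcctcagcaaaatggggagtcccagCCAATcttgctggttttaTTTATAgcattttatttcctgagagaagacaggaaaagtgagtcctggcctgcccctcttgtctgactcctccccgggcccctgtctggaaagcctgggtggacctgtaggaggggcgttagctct
*Tnc*, chr4:64047016-64047265, minus strand: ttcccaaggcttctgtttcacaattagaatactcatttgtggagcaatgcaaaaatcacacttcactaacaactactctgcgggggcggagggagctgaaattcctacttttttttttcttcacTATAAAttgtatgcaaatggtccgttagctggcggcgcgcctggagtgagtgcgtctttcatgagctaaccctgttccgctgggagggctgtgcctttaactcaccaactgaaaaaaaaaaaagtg
*Postn*, chr3:54360857-54361106, plus strand: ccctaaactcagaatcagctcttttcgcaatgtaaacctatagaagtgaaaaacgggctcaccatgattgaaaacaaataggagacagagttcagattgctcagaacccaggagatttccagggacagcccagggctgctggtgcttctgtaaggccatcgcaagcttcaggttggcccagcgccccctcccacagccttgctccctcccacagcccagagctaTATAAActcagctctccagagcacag
*Spp1*, chr5:104434861-104435110, plus strand: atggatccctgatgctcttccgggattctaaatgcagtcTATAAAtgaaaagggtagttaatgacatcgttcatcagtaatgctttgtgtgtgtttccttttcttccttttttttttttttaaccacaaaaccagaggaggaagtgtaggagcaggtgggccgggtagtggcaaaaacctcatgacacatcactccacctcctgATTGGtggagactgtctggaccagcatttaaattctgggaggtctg

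TATAAA was found in 4 of the 6 windows (*Thbs2*, *Tnc*, *Postn* and *Spp1*), against 13.6% of all 32851 promoters of the table, each read over 250 bases before and 50 after the start. In *Postn* it began at position -26, where a TATA box usually lies, and in the other 3 it began at -126 or further upstream. CCAAT was found in 3 of 6 (*Thbs2*, *Spp1* and *Thbs3*), against 37.4% of promoters. TGANTCA, the letters bound by AP-1, and GGAATG, bound by TEAD factors, were found in 0 of 6, against 7.81% and 14.7% of promoters. The motifs do not overlap each other in these windows. The *Sparc* window starts from an entry 3103 bases from the annotated 5′ end of the gene, whereas the other 5 lie within 27 bases of it, so the counts out of 6 include a window of another kind. A match describes the letters only and is no evidence that a factor binds there.

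The comparison of CharmeKO with WT asked whether the expression of these ECM genes differed between the genotypes. With limma, 0 of 8 members had an adjusted p under 0.05 (adjusted p = 0.9999 for each), as for 0 (0%) of the 15948 genes tested. At an unadjusted p under 0.05 there were also 0 of 8, against 0.897% of all genes, and edgeR and DESeq2 on the recovered reads called 0 of 8, against 0 (0%) and 0.0502% of all genes. *Fn1*, *Thbs1*, *Thbs3*, *Tnc*, *Postn* and *Spp1* had a log2 fold change below 0, which makes 6 of 8, against 49.6% of genes, and the median over the members was -0.17 on the log2 scale, against 0.00 over all genes. The WT and CharmeKO values overlapped for every member, while they were apart for 4.11% of genes (1.98% lower and 2.14% higher in CharmeKO). With the replicate number as a block, 0 of 8 had an unadjusted limma p under 0.05, against 5.37% of genes, and DESeq2 called 0 of 8, against 0.401%. Before adjustment, DESeq2 with the block gave a p under 0.05 for 2 of 8, *Fn1* and *Postn*, against 5.59% of genes. The same cut was passed by 0 of 8 in edgeR with the block (4.82% of genes), in edgeR without it (0.991%) and in DESeq2 without it (1.79%). The members' differences were larger than those of a typical gene in size, with a median absolute log2 fold change of 0.47 against 0.17, and so was their spread, with a median distance between the lowest and the highest library of 2.55 log2 units against 1.07.

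**Figure D1:**
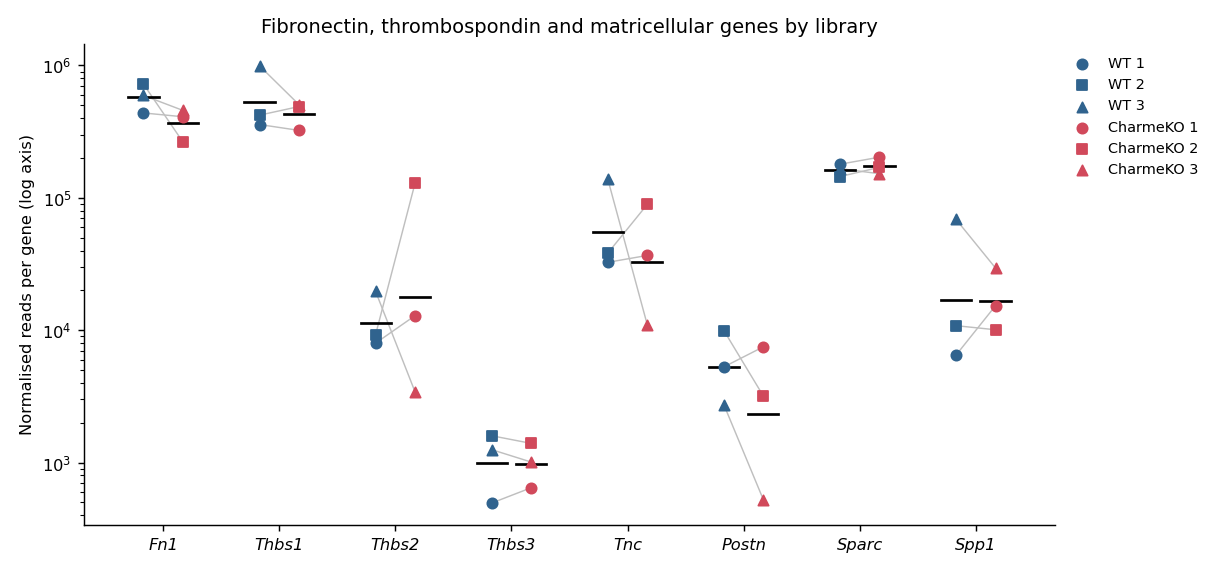
Normalised reads (log axis) of the 8 genes in each library, WT in blue and CharmeKO in red, with the libraries numbered 1, 2 and 3 as circles, squares and triangles, same-numbered libraries joined by grey lines and the mean of the log values as a black bar (n = 3 libraries per group). *Thbs2*, *Tnc*, *Postn* and *Spp1* spread over 10.6-fold or more between libraries, *Sparc* over 1.40-fold, and the 2 groups overlap for each gene.

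*Fn1* (ENSMUSG00000026193) lies on the minus strand of chromosome 1 (chr1:71585520-71653200, GRCm38) and encodes fibronectin. It had 437791, 723066 and 593647 normalised reads in WT 1, 2 and 3 and 409640, 264247 and 457439 in CharmeKO 1, 2 and 3. CharmeKO 2 was the lowest library and WT 2 the highest, WT 2 and WT 3 were above all CharmeKO libraries, and the groups overlapped only through WT 1, which lay below CharmeKO 3. The mean of *Fn1* was 584835 ± 142842 normalised reads over the WT libraries and 377109 ± 100621 over the CharmeKO libraries (± SD, n = 3).

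The log2 fold change of *Fn1* was -0.64 (SE 0.586, 95% interval -2.05 to 0.76, limma adjusted p = 0.9999). It was the only member lower in CharmeKO in all 3 pairs, by log2 differences of -0.10, -1.45 and -0.38, and such a run was seen for 14.0% of all genes. A run of 3 higher values was seen for 0 of 8 members and for 16.4% of genes, and a run in either direction for 30.4%. The difference therefore rested mainly on the libraries numbered 2. It was -0.40 without CharmeKO 2 and -0.47 without WT 2. With the replicate number as a block, its adjusted p was 0.807 in limma and 0.712 in DESeq2.

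In its RNA-seq of freshly isolated (native) CFs, the study counted *Fn1* among the most significant and most abundant genes that differed between the genotypes. It described several abundant ECM genes as lower in native CharmeKO cells, without naming *Fn1* in that sentence. Native CFs were not analysed here, so that result was not compared with the cultured values. The study also measured *Fn1* by qPCR, in native cells, and did not name it among the genes checked so in cultured CFs. Its primers are shown because they decide which *Fn1* transcripts such an assay can count, while the RNA-seq value sums all of them.
Forward primer: ggccaccattactggtctgg
Reverse primer: ggaagggtaaccagttgggg
Of 9 coding *Fn1* transcripts in GENCODE M21, 3 held both primer sites, with a product of 132 bases in each, 4 held the forward site only and 2 held neither. The 2 with neither site are short, of 671 and 1350 bases. Over all 17 transcripts, coding or not, 5 held both sites, with products of 132 to 758 bases. *Fn1* pre-mRNA is alternatively spliced, and the table does not separate its 17 annotated transcripts.

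Thrombospondins are secreted calcium-binding glycoproteins. Thrombospondin-1 and thrombospondin-2, encoded by *Thbs1* and *Thbs2*, are trimers that restrain vessel growth and bind CD47 and CD36, and thrombospondin-1 can release TGF-beta from its latent form. Thrombospondin-3 belongs to the pentameric branch of the family. The 3 genes differed strongly in level and in spread between libraries.

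*Thbs1* (ENSMUSG00000040152, chr2:118111876-118127133, plus strand) had 357912, 421265 and 993123 normalised reads in WT 1, 2 and 3 and 323103, 489137 and 505733 in CharmeKO 1, 2 and 3. WT 3 stood 1.96-fold above the next library, and the other 5 libraries of both groups were intermingled. The log2 fold change of *Thbs1* was -0.30 (SE 0.667, 95% interval -1.90 to 1.30), and without WT 3 it turned to 0.15. In WT 3 *Thbs1* had more reads than any other gene of the table, and in the other libraries it ranked between 3 and 7.

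*Thbs2* (ENSMUSG00000023885, chr17:14665500-14694235, minus strand) had 7988, 9269 and 19622 normalised reads in WT 1, 2 and 3, against 12893, 129351 and 3418 in CharmeKO 1, 2 and 3. CharmeKO held both the highest and the lowest library, and CharmeKO 2 stood 6.59-fold above the next one. The distance from lowest to highest was 37.8-fold, wider than for 97.5% of the genes tested. In CharmeKO 2 *Thbs2* ranked 18 among all genes by normalised reads, and in CharmeKO 3 it ranked 2456.

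The group comparison of *Thbs2* therefore depended on a single library. Its log2 fold change was 0.66 (SE 1.25, 95% interval -2.33 to 3.64), and it turned to -0.77 without CharmeKO 2 and rose to 1.85 without CharmeKO 3. The differences within pairs were 0.69, 3.80 and -2.52 on the log2 scale. edgeR, which averages reads rather than their logarithms and so gives the highest library more weight, put the log2 fold change of *Thbs2* at 1.99 (edgeR adjusted p = 0.99997), and at 0.67 with the replicate block.

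*Thbs3* (ENSMUSG00000028047, chr3:89215180-89226837, plus strand) was the scarcest of the 3, with 495, 1596 and 1253 normalised reads in WT 1, 2 and 3 and 646, 1397 and 1010 in CharmeKO 1, 2 and 3. The libraries numbered 1 were low and those numbered 2 were high in both groups. The replicate number accounted for 93.7% of the variance of the log2 values of *Thbs3* and genotype for 0.111%. Its log2 fold change was -0.04 (SE 0.496, 95% interval -1.23 to 1.15).

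The ratio of *Thbs1* to *Thbs2* reads was similar in the 3 WT libraries and scattered in the 3 CharmeKO libraries. It was 44.8, 45.4 and 50.6 in WT 1, 2 and 3, and 25.1, 3.78 and 148 in CharmeKO 1, 2 and 3. The level of each gene varied over 2-fold among the WT libraries, but mainly through WT 3, since WT 1 and WT 2 were close in both genes. The WT ratios lay inside the CharmeKO range, so that the means could not be told apart. On the log2 scale the mean ratio was 5.55 ± 0.0961 over the WT and 4.59 ± 2.65 over the CharmeKO libraries (± SD, n = 3), a difference of -0.96 with an exact two-sided permutation p = 0.7, where 0.1 is the smallest that 3 against 3 libraries can give. Without CharmeKO 2 the difference turned to 0.38. The difference in spread was noticed in these data and was not tested, and ratios of the other pairs of members were not computed.

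**Figure D2:**
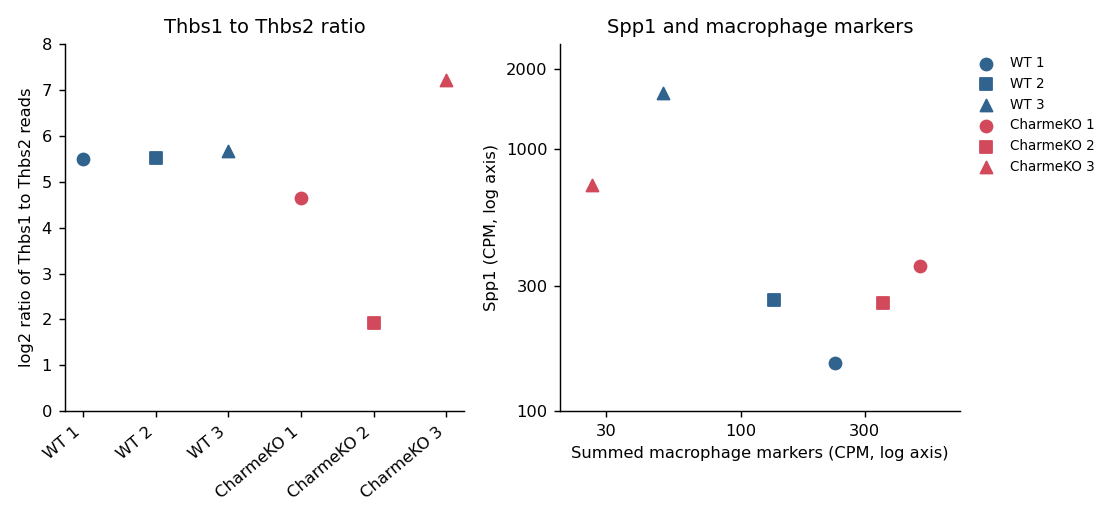
Left, log2 ratio of *Thbs1* to *Thbs2* reads in each library, which is 5.55 ± 0.0961 in WT (mean ± SD, n = 3) and scattered below and above that in CharmeKO. Right, *Spp1* against the summed level of 15 macrophage markers (both in CPM on log axes), with the libraries numbered 3 highest in *Spp1* and lowest in the markers.

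*Tnc*, *Postn*, *Sparc* and *Spp1* encode matricellular proteins of separate families. Tenascin-C weakens the adhesion of cells to fibronectin and appears at sites of repair, and periostin is bound by integrins, promotes collagen cross-linking and marks activated fibroblasts of the injured heart. *Tnc* (ENSMUSG00000028364, chr4:63959785-64047015, minus strand) had 32573, 38233 and 138475 normalised reads in WT 1, 2 and 3 and 36721, 89150 and 11013 in CharmeKO 1, 2 and 3. The libraries numbered 1 were close to each other, while those numbered 3 were at opposite ends, WT 3 the highest and CharmeKO 3 the lowest of all 6. The log2 fold change of *Tnc* was -0.75 (SE 0.880, 95% interval -2.86 to 1.36), and it was 0.04 without CharmeKO 3 and -0.10 without WT 3. The pairs gave log2 differences of 0.17, 1.22 and -3.65, so the negative mean came from the libraries numbered 3.

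*Postn* (ENSMUSG00000027750, chr3:54361109-54391037, plus strand) had 5284, 9945 and 2738 normalised reads in WT 1, 2 and 3 and 7492, 3186 and 525 in CharmeKO 1, 2 and 3. CharmeKO 3 was the lowest library, the next one being 5.22-fold higher, and the groups overlapped. The log2 fold change of *Postn* in limma was -1.17 (SE 0.985, 95% interval -3.53 to 1.19, limma adjusted p = 0.9999). Without CharmeKO 3 it was -0.10, without WT 2 -0.71 and without CharmeKO 1 -2.02, and edgeR put it at -0.69, or at -1.20 with the replicate block.

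Within pairs, *Postn* differed by 0.50, -1.64 and -2.38 on the log2 scale. The replicate number held 62.4% of its variance, and with that number as a block the SE fell to 0.585, with an adjusted p of 0.7997 in limma and 0.533 in DESeq2. *Postn* thus stayed outside the threshold with and without the block.

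*Sparc* (ENSMUSG00000018593, chr11:55394500-55423183, minus strand), whose product binds collagen and assists its assembly, was the steadiest member. It had 179447, 144736 and 166286 normalised reads in WT 1, 2 and 3 and 202839, 169883 and 152086 in CharmeKO 1, 2 and 3. All libraries lay within 1.40-fold of each other, a narrower range than that of all but 14.7% of genes. Its log2 fold change was 0.09 (SE 0.364, 95% interval -0.78 to 0.97), with differences within pairs of 0.18, 0.23 and -0.13, and it was -0.019 without CharmeKO 1.

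*Spp1* (ENSMUSG00000029304, chr5:104435118-104441050, plus strand) encodes osteopontin, an integrin and CD44 ligand that macrophages and activated fibroblasts secrete. It had 6489, 10824 and 68722 normalised reads in WT 1, 2 and 3 and 15320, 10082 and 29508 in CharmeKO 1, 2 and 3. The libraries numbered 3 were the highest of their group, WT 3 by far, and the groups overlapped. The log2 fold change of *Spp1* was -0.03 (SE 0.895, 95% interval -2.17 to 2.12), with differences within pairs of 1.24, -0.10 and -1.22. Without WT 3 it was 0.98, and edgeR put it at -0.64, or at -0.03 with the replicate block. In GENCODE M21 the span of another gene, Gm42793, overlaps *Spp1* on the same strand. Reads over exons of both would be counted for neither. Whether exons overlap in the annotation that the authors used was not checked, so the level of *Spp1* is uncertain.

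Since *Spp1* is also a macrophage gene, the levels of 15 macrophage markers were set beside it. Their summed level was 231, 134 and 49.9 CPM in WT 1, 2 and 3 and 490, 354 and 26.5 CPM in CharmeKO 1, 2 and 3. All 15 were in the table, the largest contribution being *Lyz2* in 5 of the 6 libraries and in CharmeKO 3 *Csf1r*. The defining markers *Adgre1* and *Ptprc* were at most 12.0 and 5.93 CPM. The 2 libraries with the most *Spp1*, WT 3 and CharmeKO 3, at 1625 and 725 CPM, had the lowest macrophage marker levels. CharmeKO 1, highest in the markers, had more *Spp1* than WT 1, 356 against 153 CPM. CharmeKO 2 and WT 2 had 258 and 264 CPM. The part of macrophage RNA in the *Spp1* values was not tested. In RNA from whole cultures, fewer cells of a type and less RNA per cell cannot be told apart, which applies to each value given here.

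**Figure D3:**
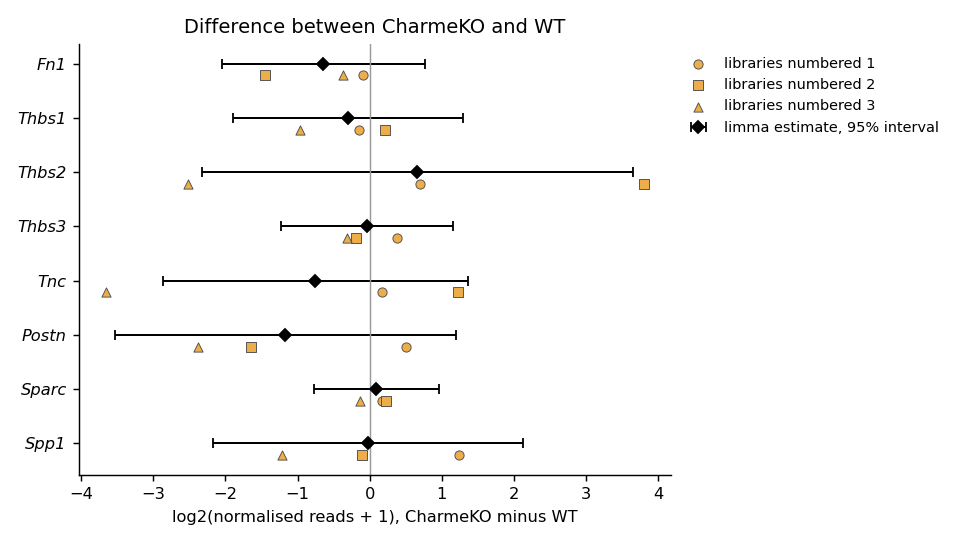
Log2 difference between CharmeKO and WT for each gene, with the limma estimate and its 95% interval (black, n = 3 libraries per group) and the difference within each of the 3 same-numbered pairs (orange). Each interval covers 0, and the 3 pairs fall on one side of 0 only for *Fn1*.

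The spread between libraries differed between the groups for some members, in either direction. The SD of the log2 values of *Thbs2* was 0.695 in WT and 2.65 in CharmeKO, and that of *Postn* was 0.930 and 1.96. For *Spp1* the order was the opposite, 1.79 in WT and 0.781 in CharmeKO, and for *Thbs1* it was 0.791 and 0.360. The SDs in WT and CharmeKO were closer for *Fn1* (0.365 and 0.419), *Sparc* (0.157 and 0.210), *Tnc* (1.14 and 1.51) and *Thbs3* (0.890 and 0.558). With 3 libraries a group, these differences in SD were not tested. Genotype accounted for 50.01% of the variance of *Fn1* and at most 18.0% of that of any other member. Over the 8 members the median share was 8.47% for genotype and 64.3% for the replicate number, against 5.91% and 73.8% over all genes tested.

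Together the 8 genes took 2.42%, 3.32% and 4.69% of all reads in WT 1, 2 and 3 and 2.35%, 2.95% and 2.85% in CharmeKO 1, 2 and 3 (95% Wilson intervals of at most ± 0.00668 percentage points, counting error only). Levels of different genes were compared per kilobase of exon, as RPKM. *Thbs1* was the most abundant with a mean of 2048 RPKM over the 6 libraries, followed by *Sparc* with 1077, *Fn1* with 992, *Spp1* with 342, *Tnc* with 180, *Thbs2* with 109, *Postn* with 13.4 and *Thbs3* with 5.38 RPKM. *Fn1* was above *Spp1*, and *Thbs2* above *Postn*, in 6 of 6 libraries. *Thbs1* above *Sparc*, *Tnc* above *Thbs2* and *Postn* above *Thbs3* held in 5 of 6. *Sparc* and *Fn1*, and *Spp1* and *Tnc*, kept their order in 4 of 6 and could not be ranked beyond their spread. In CharmeKO 2 *Thbs2* reached 472 RPKM.

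**Figure D4:**
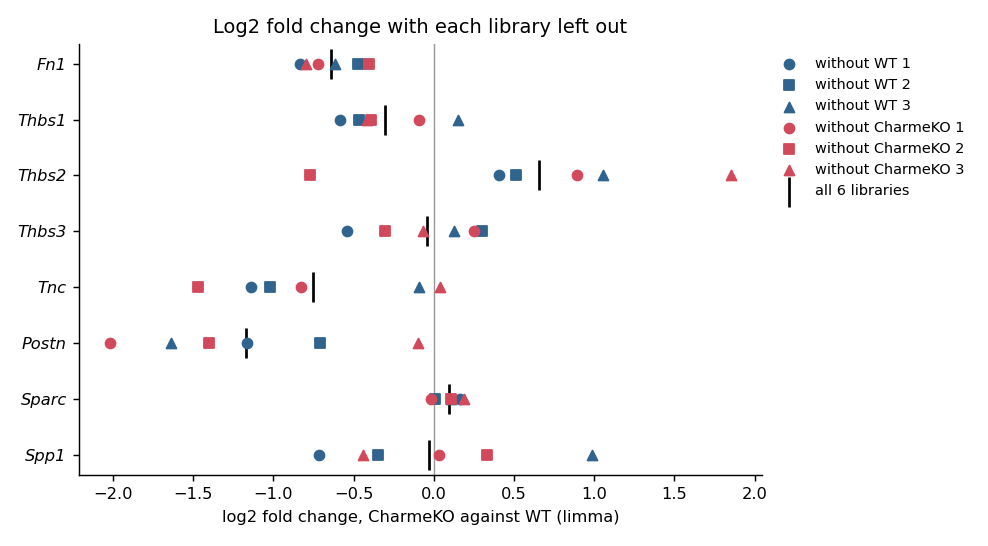
Limma log2 fold change of each gene with all 6 libraries (black bar) and with each library left out in turn (blue for a WT and red for a CharmeKO library). *Fn1* and *Postn* stay below 0 throughout, and the other 6 genes cross 0.

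The members were then compared with each other and with all genes over the 6 libraries. Of 28 pairs of members, 0 had a correlation with an adjusted p under 0.05 (the lowest was 0.831 for Pearson's r and 0.928 for Spearman's rho, permutation over all orders). The highest r was that of *Thbs1* and *Spp1*, 0.83 (exact p = 0.0458, rho 0.60 with exact p = 0.242), and it was 0.78 without the 2 libraries farthest from the median. *Thbs2* and *Tnc* had r = 0.77 (exact p = 0.0819) and the highest rho, 0.886 (exact p = 0.0333), with r = 0.89 after leaving out such libraries. WT 3 was among the 2 highest libraries for each of these 4 genes.

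Among 11582 genes with a mean of at least 100 normalised reads, the 3 with the pattern most like each member across the 6 libraries were listed. For *Fn1* they were *Mfap3*, which encodes a protein associated with microfibrils (r = 0.991), *Synpo*, an actin-binding protein of stress fibres (r = 0.990), and *Gcnt4* (r = 0.975). *Thbs1* was closest to *Neurl1a* (r = 0.988), *Hs2st1*, a heparan sulphate sulphotransferase (r = 0.983), and *Yap1*, the transcriptional coactivator of the Hippo pathway (r = 0.982). *Thbs2* was closest to *Ankrd54* (r = 0.989), the interferon-induced scramblase gene *Plscr1* (r = 0.982) and *Vax2* (r = 0.978). For *Thbs3* the genes were *Hinfp* (r = 0.9996), *Serf1* (r = 0.997) and *Thap1* (r = 0.996).

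*Tnc* was closest to *Sp140* (r = 0.993), *Il1rn*, the interleukin-1 receptor antagonist (r = 0.992), and *Lmo7* (r = 0.986). For *Postn* the genes were *Pstpip1* (r = 0.994), *Pacs1* (r = 0.992) and *Sp100* (r = 0.988). For *Sparc* they were *Tmem159* (r = 0.997), *Elapor2* (r = 0.995) and *Pi4k2a* (r = 0.993). For *Spp1* they were *Rnf113a1* (r = 0.986), *Vwa1* (r = 0.981) and a gene without a symbol, ENSMUSG00000097769 (r = 0.973). With 6 points and so many candidates the closest gene had an r of at least 0.986 for each of the 8 members, and the values are given as a description. A correlation does not compare how far 2 genes vary. *Ankrd54*, the closest to *Thbs2*, had only 662 to 796 normalised reads.

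Relatives of the members were examined as a list of 24 genes, of which 18 were in the table and 13 were tested. Limma called 0 of 13, with 6 above and 7 below 0 and a median log2 fold change of -0.13, and 1 of 13 was lower in all 3 pairs. The direction of the median depended on single libraries, being 0.08 without CharmeKO 2, 0.12 without CharmeKO 3 and -0.53 without WT 3, and edgeR put 10 of 13 below 0. *Ccn2*, a TGF-beta and YAP target known as CTGF, had 66758, 9593 and 77404 normalised reads in WT 1, 2 and 3 and 75599, 6807 and 24469 in CharmeKO 1, 2 and 3, low in both libraries numbered 2. Of the other thrombospondins, *Thbs4* had at most 6 and *Comp* at most 26 normalised reads in any library, too few to be tested. The lowest p among the relatives was that of *Spock2*, a proteoglycan of the SPARC family, with a log2 fold change of -0.74 (SE 0.679). *Ccn4*, a Wnt-induced protein of the CCN family, followed with -0.56 (SE 0.577), and *Tnr*, a tenascin of the nervous system, with -0.55 (SE 0.802) at no more than 16 normalised reads in any library.

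The receptors of these proteins were examined as a list of 17 genes, integrin subunits, CD36, CD47, CD44, syndecan-4, LRP1 and the calcium channel subunit that binds thrombospondins, and all 17 were tested. Limma called 0 of 17 (adjusted p = 0.9999 for each). Of these, 15 of 17 had a log2 fold change below 0, against 49.6% of genes, with a median of -0.47, and 9 of 17 were lower in all 3 pairs, against 14.0% of genes. With single libraries left out the median ranged from -0.73 to -0.24. The count below 0 ranged from 11 of 17, both without WT 1 and without CharmeKO 3, to 16 of 17 without WT 2. Of the smooth muscle markers, limma called 0 of 10, as for 0% of genes, and their median log2 fold change was -1.73. Of these, 10 of 10 were below 0 (49.6% of genes) and 7 of 10 were lower in all 3 pairs (14.0%). Groups did not overlap, lower in CharmeKO, for 2 of 10 (1.98%). DESeq2 with the replicate block called 2 of these 10, against 0.401% of genes. They were *Actg2* (adjusted p = 8.5e-07) and *Myh11* (adjusted p = 6.0e-04), which encode a smooth muscle actin and myosin heavy chain. Without the block DESeq2 called 0 of these 10, against 0.0502% of genes, with adjusted p = 0.302 for *Actg2* and 0.9999 for *Myh11*. The paper itself counted *Myh11* among its 3 most significant genes in cultured CFs and checked it there by qPCR. In these cultures such markers need not come from smooth muscle cells. The paper used αSMA, the product of the listed gene *Acta2*, to score the conversion of CFs into myofibroblasts. The part of smooth muscle or myofibroblast RNA in the receptor values was not tested. Receptor subunits that are expressed together are not independent of each other.

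*Cacna2d1*, which encodes the thrombospondin-binding channel subunit, was the only receptor whose groups did not overlap, lower in CharmeKO, as for 1.98% of genes. It had 4030, 4277 and 3822 normalised reads in WT 1, 2 and 3 and 3243, 2052 and 2900 in CharmeKO 1, 2 and 3, with a log2 fold change of -0.59 (SE 0.206, 95% interval -1.08 to -0.098, limma adjusted p = 0.9999). Without the replicate block it was the only one of the 17 with an unadjusted limma p under 0.05, against 0.897% of all genes. *Itgav*, the alpha subunit of integrins that bind fibronectin, periostin and osteopontin, had 20323, 14355 and 26394 normalised reads in WT 1, 2 and 3 and 15203, 11471 and 16722 in CharmeKO 1, 2 and 3. Each CharmeKO library was below its WT partner, the groups overlapped, and the log2 fold change was -0.47 (SE 0.284). With the block the SE of *Itgav* fell to 0.116 and its unadjusted limma p was also under 0.05, as for 5.37% of genes, while its adjusted p was 0.7997.

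*Itga5*, the alpha subunit of the main fibronectin receptor, had 9494, 6429 and 37582 normalised reads in WT 1, 2 and 3 and 9323, 4095 and 6561 in CharmeKO 1, 2 and 3. WT 3 alone was high, and the log2 fold change was -1.06 (SE 0.675). *Itga8*, a receptor subunit for fibronectin and tenascin-C found on mesenchymal cells, had 100, 185 and 3402 normalised reads in WT 1, 2 and 3 and 67, 124 and 50 in CharmeKO 1, 2 and 3, and again stood high in WT 3 only. Its log2 fold change was -2.40 (SE 1.28).

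WT 3, the library highest in *Thbs1*, *Tnc*, *Spp1*, *Itga5* and *Itga8*, also had the highest summed level of 10 smooth muscle markers. That level was 3292, 800 and 5917 CPM in WT 1, 2 and 3 and 3083, 398 and 782 CPM in CharmeKO 1, 2 and 3. The markers' part in the values of these genes was not tested. Without WT 3 the median log2 fold change of the 8 members turned from -0.17 to 0.12, and that of the smooth muscle markers went from -1.73 to -0.97.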

How the data were processed

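RNA had been extracted with a miRNeasy kit and sequenced after poly(A) selection with a directional kit. Per the study's methods, the authors aligned reads with STAR and counted them per gene on the reverse strand on Ensembl release 87 with *Charme* added. Genes with few reads were then removed, and DESeq2 was used for normalisation. The labels name the build GRCm39 and also GRCh38, which is a human build, whereas that annotation is older than GRCm39. Coordinates given here therefore come from GENCODE M21 (GRCm38) by gene ID and not from the table. What the authors deposited is a normalised read signal, reads divided by a size factor for each library. Of 116676 values, 100% were whole reads after division by the library's step (tolerance 1e-06). CPM and RPKM were computed from these reads, RPKM with the summed exon length of each gene.

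Since the values are normalised, the main test was limma on log2(value + 1) with its mean-variance trend, and genotype was the single term. Genes entered if 2 or more libraries held 10 or more reads. Fold changes are on this scale, which understates those of genes with few reads. P-values were adjusted over all 15948 genes by Benjamini and Hochberg (threshold 0.05, two-sided). edgeR's quasi-likelihood test on the recovered reads called 0 genes. The libraries' depth of 38330019 to 46797446 reads sets a floor of 3 reads, 0.0641 to 0.0783 CPM, for counting error only. Reads without molecular identifiers are not independent molecules.

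Groups and numbers came from the sample titles. Deviations of same-numbered libraries from their group means correlated across genes with r = 0.762, 0.514 and 0.217 for numbers 1, 2 and 3, against -0.643 to 0.222 for other combinations. Number 3 thus did not stand out from the other combinations. Fits with the replicate number as a block were added beside those without it. The members and lists were chosen with earlier results of these data known. The text names all 8 members, the 3 genes most like each by Pearson correlation, *Charme*, and the 3 relatives and 3 receptors with the lowest p. *Ccn2*, *Thbs4*, *Comp*, *Itga5* and the macrophage markers were named after their values had been seen. Scripts were tested on simulated reads. R 4.3.3, limma 3.58.1, edgeR 4.0.16, DESeq2 1.42.0, Python 3.11.15 and matplotlib 3.10.9 were used. Native CFs were not analysed here.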

Additional observations from a re-analysis of the deposited data

How the results depend on the processing

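Each log2 fold change was recomputed with pseudocounts of 0.5 and 10, other filters, plain library sizes, edgeR and DESeq2, the replicate block and each library left out, and 0 of the 8 members were called in any of these. *Fn1* and *Postn* kept their direction in all 16 alternatives, between -0.84 and -0.40 and between -2.02 and -0.10 when a library was left out. The direction turned for *Thbs1* without WT 3 (0.15), *Thbs2* without CharmeKO 2 (-0.77), *Tnc* without CharmeKO 3 (0.040), *Sparc* without CharmeKO 1 (-0.019), *Thbs3* without WT 2, WT 3 or CharmeKO 1 (0.30, 0.12 and 0.25), and *Spp1* without WT 3, CharmeKO 1 or CharmeKO 2 (0.98, 0.03 and 0.33) and with plain library sizes (0.0068). When a library was left out, the ranges were -0.59 to 0.15 for *Thbs1*, -0.77 to 1.85 for *Thbs2*, -0.54 to 0.30 for *Thbs3*, -1.47 to 0.040 for *Tnc*, -0.019 to 0.19 for *Sparc* and -0.72 to 0.98 for *Spp1*. The *Thbs1* to *Thbs2* log2 ratio differed by -2.27 to 0.38 between the genotypes, turning only without CharmeKO 2 (0.38). Over all genes, limma called 0, DESeq2 called 8 genes and DESeq2 with the replicate block 64, with no member, relative or receptor among them, and limma and edgeR with the block called 0. The block changed no call of a member. The cause of these differences was not tested. With 3 libraries a group, the 95% interval of the steadiest member, *Sparc*, spanned -0.78 to 0.97, and the intervals of the other members were wider.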
